A study of Mus musculus with 60 samples.

Results

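Trimethylation of lysine 27 on histone H3 (H3K27me3) was compared between lumbar dorsal root ganglia taken 24 h after sciatic nerve axotomy (SNA) and after a sham operation on the same nerve (Sham). The comparison rests on the 4 H3K27me3 immunoprecipitation samples of those groups, of 60 samples in the study. The authors pooled the 2 samples of each group into 1 deposited list of broad peaks, so 264588 regions of the 1967772 in all 16 lists were used. The mice were C57BL/6, 6 to 8 weeks old, and each sample pooled the ganglia of lumbar levels L4 to L6 from 10 mice. No genotype or drug separated the groups, which per the labels differed in the surgery alone. A list made after laminectomy (Lam), which exposes the spinal cord and leaves the axons uncut, served as background against Sham. A list made after dorsal column axotomy (DCA), which cuts the central branch of the same sensory neurons, stood beside Lam. Every condition had 1 list, so no value below has a replicate error and no p-value could be computed, and pooled ganglia do not tell fewer cells of a type from less of the mark per cell.

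H3K27me3 is written by the Polycomb repressive complex 2, whose catalytic subunit is EZH2 or EZH1, and is removed by the demethylases KDM6A and KDM6B. The mark lies in broad domains over genes that a cell lineage keeps silent, above all the transcription factors of development and the Hox clusters, and often over promoters rich in CG dinucleotides. In dorsal root ganglia it is carried by the sensory neurons and by the more numerous cells around them, such as satellite glia and Schwann cells.

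The unit of the comparison was the covered share, which is the percentage of bases of a gene, with 10 kb on each side, or of a 100 kb window, that lay under a peak. A gene or window gained coverage in one list against another when its covered share was at least 2 times higher and at least 10 percentage points higher, and lost it in the mirror case. The words gained and lost are used below for that rule only, which is a rule of size and not a test. Of 21883 protein-coding genes, 18862 held at least 1 covered base in at least 1 of the 4 H3K27me3 lists and were compared, as were 23889 windows.

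The lists held 122953 peaks after Sham, 141635 after SNA, 154055 after Lam and 90011 after DCA, and covered 178.0, 172.7, 194.2 and 91.4 Mb. The median peak was 1.11-fold over the authors' background after Sham and 1.15-fold after SNA, and 1613 Sham peaks but 218 SNA peaks had a q of at most 0.05. Peak names carry a rank, and between 49.9% and 62.3% of the ranks of a list were in it. Of ranks 1 to 1000, 46.7% were in the Sham list and 45.7% in the SNA list. A base with no peak may therefore belong to a removed peak, and the rule of removal is not given in the sources used here. The X chromosome held 0.130% of the covered bases in both lists. As a check of the mark, the 96 developmental transcription factors tested had a median covered share of 83.6% after Sham and 77.9% after SNA, and the 41 ribosomal protein genes tested had 1.13% and 0%. As a check of the tissue, an H3K9ac peak, a mark of active promoters, lay within 1 kb of the start of 5 of 45 sensory neuron genes in the Sham list of that mark. The same was found for 18 of 28 genes of satellite glia and Schwann cells and 3 of 40 genes of epithelium, liver and germ line. These shares are 11.1%, 64.3% and 7.5%, beside 51.9% of all genes tested. For H3K9ac the sensory neuron share was thus near that of the silent contrast list of epithelium, liver and germ line. The 2 lists were further apart for ATAC, an assay of accessible DNA, at 73.3% and 35% in Sham beside 72.8% of all genes. For H3K27ac, a mark of active promoters and enhancers, they were at 13.3% and 0%, beside 41.8% of all genes. The makeup of the tissue was not tested further. At least 50% of the gene and its flanks was covered for 8 of the 45 sensory neuron genes after Sham and for 3 after SNA, and the list's medians were 16.7% and 15.3%.

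SNA and Sham lists covered nearly the same length, a log2 ratio of -0.04, against 0.13 for Lam over Sham. The places covered differed. Genes with their flanks held 89.0 Mb of covered bases after Sham and 78.1 Mb after SNA, and the rest of the genome held 89.0 Mb and 94.7 Mb. Lam covered 101.9 Mb in genes and 92.3 Mb elsewhere. The mean covered share of a gene was 9.73% after Sham, 7.87% after SNA, 11.1% after Lam and 3.79% after DCA. SNA was thus below both lists of animals with uncut axons at genes, and DCA was the lowest of the 4.

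Against Sham, 1708 of 18862 genes lost coverage after SNA (9.06%) and 730 gained it (3.87%). Lam against the same Sham list went the other way, with 613 genes lost (3.25%) and 1374 gained (7.28%). Against Lam, SNA lost 2309 genes (12.2%) and gained 491 (2.6%), and both comparisons of SNA, which share the SNA list, called 1008 genes lost and 218 gained. The other lists stood apart in their turn, so these counts have a background of the same kind. Lam was called higher than both Sham and SNA at 756 genes and lower than both at 146, and Sham was called lower than both SNA and Lam at 327 genes and higher at 317. Because Sham was at times the low list, the gains below are of 2 kinds, those where Sham was the low list and those where SNA was the high one. For DCA against Lam, the spinal counterpart, 4206 genes were lost (22.3%) and 92 gained (0.488%). That comparison shares no list with SNA against Sham. Of the 1708 genes lost after SNA, 1100 were lost after DCA too, which is 64.4% of the former and 26.2% of the latter, and 5 were gained. Of the 730 gained after SNA, 235 were lost after DCA (32.2%) and 18 gained. Only a gene covered in Lam could be lost after DCA, so the 22.3% of all genes is not a matched background for these shares.

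Few calls rested on peaks with a q of at most 0.05. Such a SNA peak lay in 4 of the 730 gained genes, and such a Sham peak in 73 of the 1708 lost genes, which is 0.548% and 4.27%, against 0.414% and 2.28% of all genes tested. The loss threshold cut a continuous range. Decr2, just inside it, went from 10.0% in Sham to none in SNA, and Cryba4, just outside, from 9.99% to none. There were 184 lost genes within 1 percentage point of it and 194 genes just short. Adgre4, at 3.80% in Sham and 13.8% in SNA, was the gained gene nearest the threshold, with 88 gained genes within 1 point inside and 109 outside, the nearest of which was Ccbe1 at 8.61% and 18.6%. Of 101 called genes that are named here or belong to a gene list, 18 turned direction when each list was reduced to its strongest peaks up to the 91.4 Mb of the shortest list. They include Dio3, Wnt1, Pcgf1, Sox2, Ecel1, Nefm, Hoxb1, Hoxb9 and Hoxc10 among the losses and Rag1, Foxf2 and Gdf5 among the gains.

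The promoters of 4 of the named genes are printed because each was wholly under a peak in one list and wholly free of peaks in the other, so they show the kinds of start region that changed. They run from 250 bases before to 50 bases after the gene's start in RefSeq (GRCm38.p6), written 5′ to 3′ on the gene's own strand, and capitals mark each CG dinucleotide. Foxd3 (chr4:99656049-99656348, plus strand, 25 CG) and Wnt1 (chr15:98789607-98789906, plus strand, 26 CG) were covered for all 300 bases after Sham and Lam and for none after SNA and DCA. Six6 (chr12:72939632-72939931, plus strand, 20 CG) was covered for no base after Sham and DCA and for all 300 after SNA and Lam, and Rag1 (chr2:101649483-101649782, minus strand, 3 CG) for all 300 after SNA alone. The dinucleotide CG was present in 94.8% of all 17491 promoters of this length that matched a protein-coding gene, with a median of 13 per promoter.
Foxd3: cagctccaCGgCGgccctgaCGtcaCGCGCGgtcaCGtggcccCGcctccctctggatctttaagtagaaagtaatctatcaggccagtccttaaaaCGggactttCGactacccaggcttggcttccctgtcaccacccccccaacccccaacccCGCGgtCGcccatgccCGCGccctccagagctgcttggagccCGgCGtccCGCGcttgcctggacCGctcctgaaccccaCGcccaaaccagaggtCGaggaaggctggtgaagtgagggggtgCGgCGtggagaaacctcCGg
Wnt1: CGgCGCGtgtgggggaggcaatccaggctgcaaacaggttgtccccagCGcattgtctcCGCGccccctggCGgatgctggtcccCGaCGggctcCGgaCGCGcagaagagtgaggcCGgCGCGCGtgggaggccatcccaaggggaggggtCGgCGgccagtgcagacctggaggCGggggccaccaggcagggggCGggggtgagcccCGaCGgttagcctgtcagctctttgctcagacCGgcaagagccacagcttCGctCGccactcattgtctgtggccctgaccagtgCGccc
Six6: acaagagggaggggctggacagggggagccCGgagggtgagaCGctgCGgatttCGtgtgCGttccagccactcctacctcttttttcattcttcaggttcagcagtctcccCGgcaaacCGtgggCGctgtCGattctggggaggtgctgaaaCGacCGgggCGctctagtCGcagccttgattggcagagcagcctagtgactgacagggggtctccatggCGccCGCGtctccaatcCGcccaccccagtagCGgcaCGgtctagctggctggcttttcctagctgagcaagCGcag
Rag1: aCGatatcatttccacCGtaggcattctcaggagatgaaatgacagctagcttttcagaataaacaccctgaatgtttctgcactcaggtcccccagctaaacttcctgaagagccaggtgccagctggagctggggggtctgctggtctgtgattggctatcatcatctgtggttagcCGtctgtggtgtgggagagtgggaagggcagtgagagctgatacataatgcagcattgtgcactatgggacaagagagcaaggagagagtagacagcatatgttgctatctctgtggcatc

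Of all these promoters, 1624 were under a Sham peak and no SNA peak, 617 under an SNA peak and no Sham peak, and 642 under both. The median CG number was 12 where the promoter was under a Sham peak only and 3 where it was under an SNA peak only. Foxd3 and Wnt1 lie above the first median and Rag1 at the second. Six6, with 20 CG, is a CG-rich promoter that was under an SNA peak and no Sham peak, and under a Lam peak as well. In promoters with 21 to 65 CG, like those of Foxd3 and Wnt1, 10.7% were under a Sham peak, 2.62% under an SNA peak, 6.95% under a Lam peak and 0.102% under a DCA peak. In promoters with 0 or 1 CG the order of SNA and Sham turned, at 9.91% and 8.81%, beside 9.96% for Lam and 5.76% for DCA. The 2 axotomy lists were therefore lower than the 2 lists without axotomy in every class with at least 2 CG. Gene density went with the same difference: the log2 ratio of SNA over Sham coverage was 0.12 in windows with no gene, -0.15 in windows with 2 to 3 genes and -0.55 in windows with 7 or more. Lam over Sham went the other way with density, from 0.13 in windows with 1 gene to 0.23 in those with 7 or more. Base composition and gene density move with the calls, and their part in them was not tested.

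**Figure D1:**
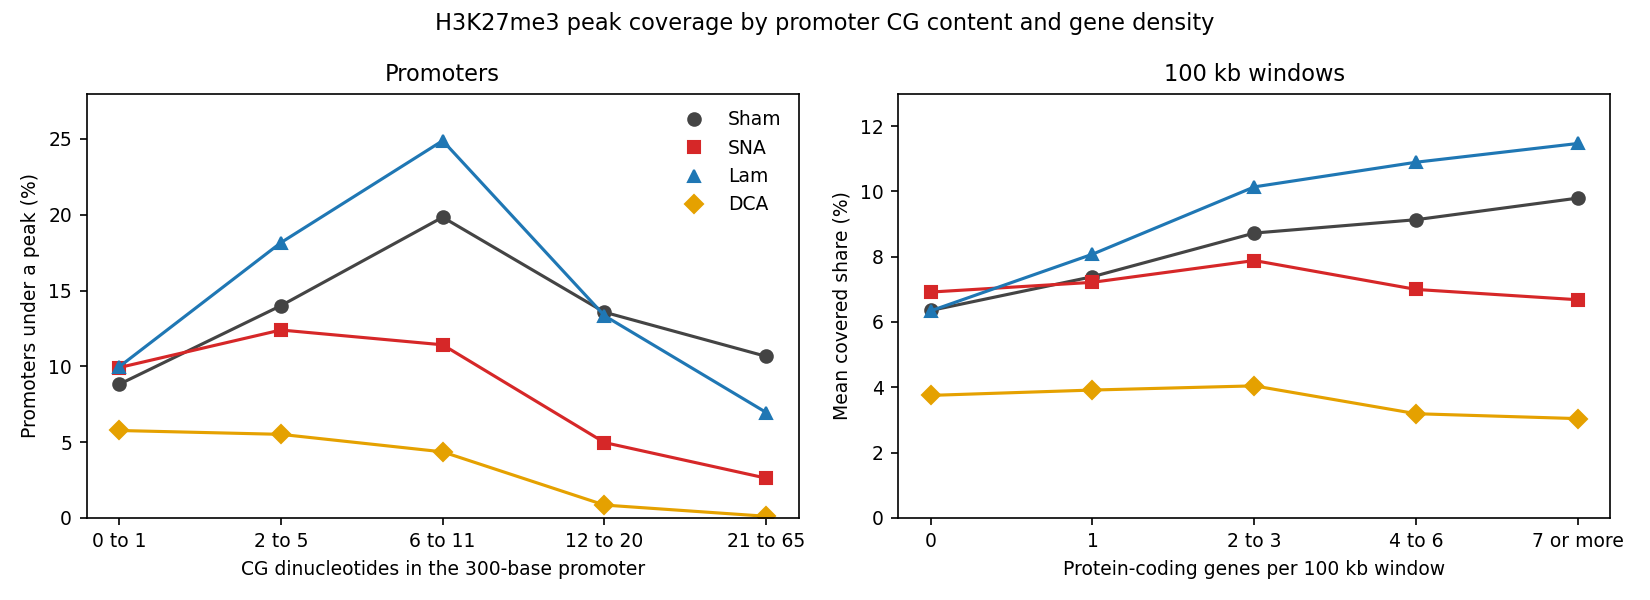
Left, percentage of 300-base promoters under an H3K27me3 peak, by the number of CG dinucleotides in the promoter; right, mean covered share of 100 kb windows by the number of protein-coding genes in them, each point being 1 pooled list. SNA lies close to Sham in promoters with 0 to 5 CG and in windows with no gene or 1 gene, and below it in CG-rich promoters (2.62% against 10.7% at 21 to 65 CG) and gene-dense windows.

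The largest loss of a gene, in points of covered share, was at Dio3, the gene of the deiodinase that inactivates thyroid hormone, on chromosome 12. Peaks covered 95.3% of Dio3 and its flanks after Sham, 86.3% after Lam, 18.4% after SNA and 0.896% after DCA. The widest Sham peak there measured 17.7 kb and the widest SNA peak 2.31 kb. The Sham peaks were faint, at most 1.02-fold over background, and the SNA peaks reached 1.28-fold. When each list was cut to its strongest peaks up to equal length, Dio3 was higher in SNA by 18.4 points. Ntf5, the gene of neurotrophin-4, a ligand of the receptor TrkB, was covered at 87.0% after Sham, 80.2% after Lam, 23.5% after SNA and 0% after DCA. Fgfr3, a receptor for fibroblast growth factors, was at 80.1%, 55.6%, 21.5% and 2.33% in the same order. Dtx1, a regulator of Notch signalling, was at 71.7%, 51.7%, 6.86% and 0%. In each of these the Sham and Lam lists were high and both axotomy lists low.

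The other 6 of the 10 largest losses had the same order of lists, with SNA and DCA both at 0% for Zfp593. Pou3f1, a transcription factor of Schwann cells before they form myelin, was at 80.3% after Sham, 41.1% after Lam, 19.6% after SNA and 9.77% after DCA. Emilin3, an extracellular matrix protein, fell from 97.1% in Sham to 37.0% in SNA. Begain, a postsynaptic scaffold protein, fell from 84.2% to 26.6%, and its Lam value of 81.6% was next to that of Sham. Zfp593, a zinc finger protein, fell from 59.9% to 0%, with 38.0% in Lam. Aqp6, an aquaporin, was at 74.4% and 4.93%, and Ush1g, a scaffold protein of hair cells, at 63.3% and 7.57%. Ush1g stood at 30.9% in Lam, which was itself a loss against Sham. All 10 genes were also lost against Lam. H3K9ac peaks lay at 3 of the 10 starts after Sham (Zfp593, Ush1g and Fgfr3) and at 2 after SNA (Zfp593 and Ush1g). Peaks of H3K27ac, a mark of active promoters and enhancers, lay at 2 starts in both lists (Pou3f1 and Zfp593). Zfp593, Ush1g and Pou3f1 had no matched promoter, so their peaks may lie at either end of the gene. Most of the starts had a peak of ATAC, an assay of accessible DNA, which lay at 9 of the 10 after Sham and at all 10 after SNA.

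**Figure D2:**
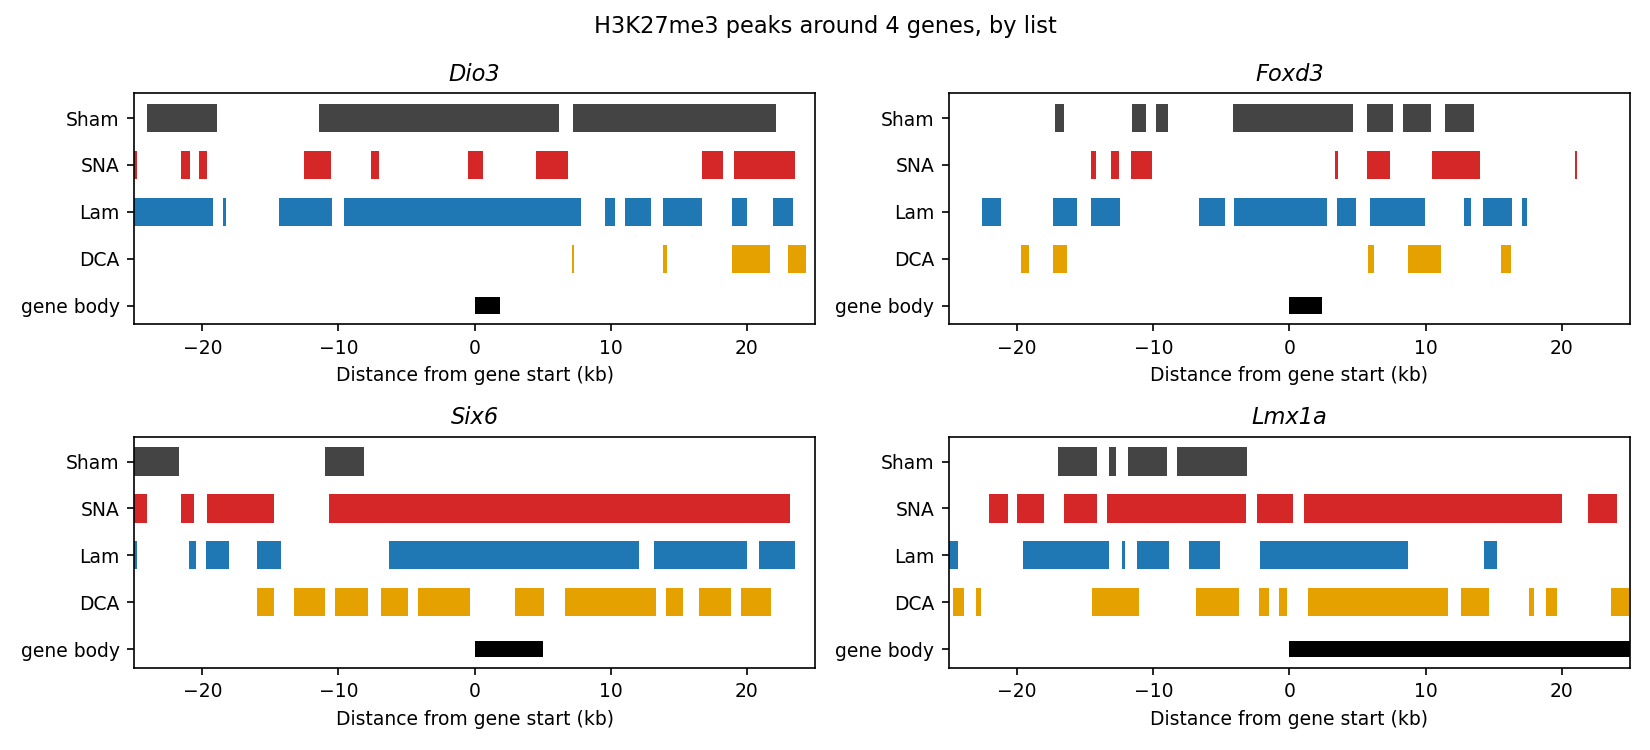
H3K27me3 peaks of the 4 lists from 25 kb before to 25 kb after the start of Dio3, Foxd3, Six6 and Lmx1a, drawn to scale by distance from the gene start, with the gene body as a black bar. Around Dio3 peaks covered 37.7 kb of this span after Sham and 13.4 kb after SNA, and around Six6 6.20 kb after Sham and 40.6 kb after SNA.

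**Figure D3:**
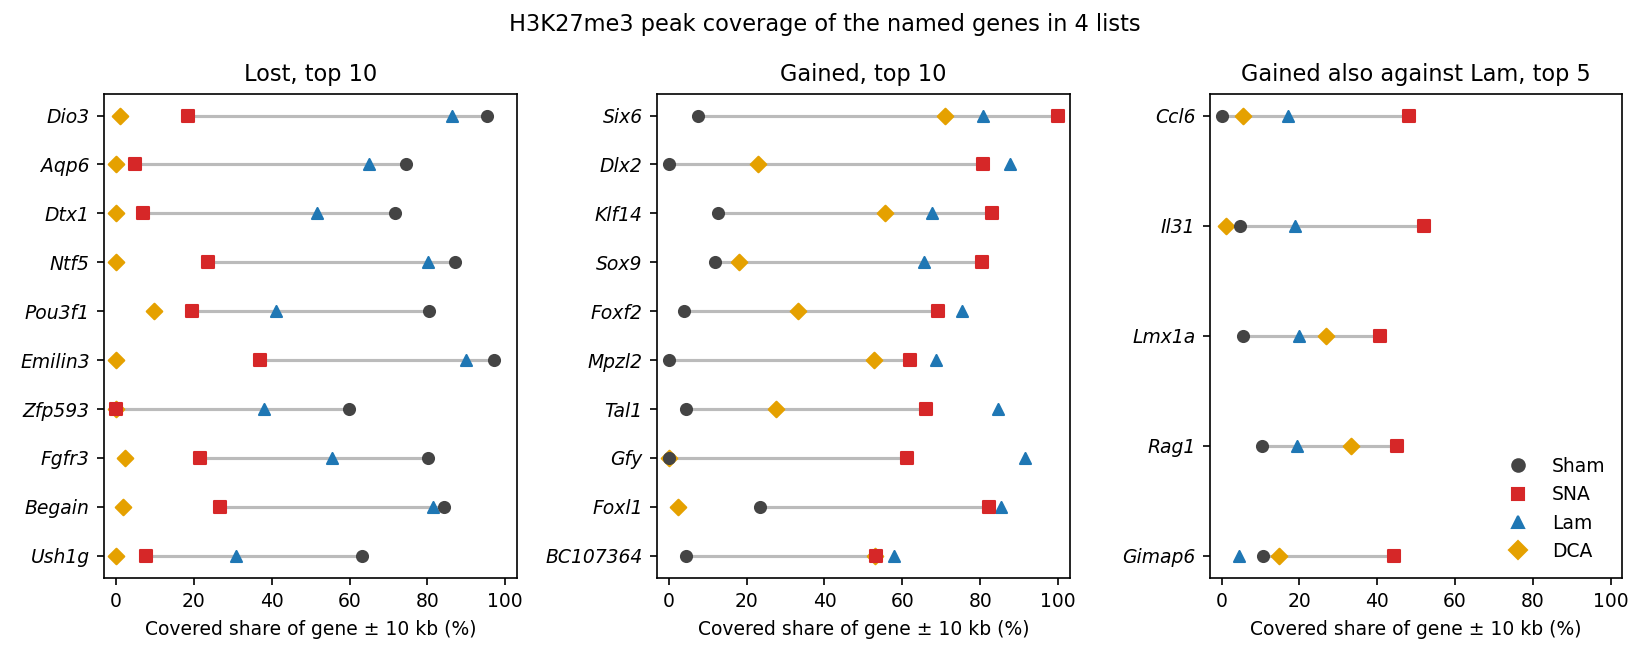
Covered share of the 10 genes with the largest loss, the 10 with the largest gain and the 5 with the largest gain that held against Lam as well, with 1 point per pooled list and a grey line from Sham to SNA. In the left panel Sham is the highest list, followed by Lam, SNA and DCA, with SNA and DCA both at 0% for Zfp593. Lam lies nearer to SNA than to Sham at Pou3f1 and Ush1g. In the middle panel Sham is apart from SNA and Lam.

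Homeobox genes of the Hox clusters set position along the body axis and are the standard example of Polycomb targets. All 39 were tested and 15 lost coverage after SNA, which is 38.5% of them against 9.06% of all genes, while 2 gained. Their median covered share was 33.7% after Sham, 6.64% after SNA, 39.6% after Lam and 4.12% after DCA. The median change from Sham to SNA was -9.67 points, beside -0.57 over all genes, and Lam over Sham had 1 Hox gene lost and 5 gained. Neighbouring Hox genes lie within 10 kb of each other, so their windows share peaks and the 39 genes are not 39 separate loci. A loss also needs a Sham share of at least 10%, and the median over all genes in Sham was 4.38%. The 9.06% is therefore not a matched background for the Hox genes or for the lists below.

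The losses were in the Hoxa, Hoxb and Hoxc clusters, with 6 of 11, 5 of 10 and 4 of 9 genes. Hoxb1 was covered at 78.1% after Sham, 29.3% after SNA and 47.8% after Lam. Hoxc9 went from 50.2% in Sham and 47.3% in Lam to 6.64% in SNA, and Hoxa9 from 30.6% and 39.6% to 0%. Hoxc6, Hoxc8 and Hoxa7 likewise had no covered base after SNA. The genes at the posterior end kept their domains: Hoxb13 and Hoxd13 were at 100% in Sham, SNA and Lam alike, and Hoxa13 was at 100% in Sham and 95.5% in SNA. The Hoxd cluster had no loss among 9 genes and 2 gains. Hoxd4 rose from 0% in Sham to 43.5% in SNA and Hoxd3 from 2.20% to 45.7%, but both were higher still in Lam, at 87.0% and 81.7%, so these gains mark a low Sham list. An H3K9ac peak lay within 1 kb of the start of 17 of the 39 Hox genes in the Sham list of that mark and of 23 in its SNA list, which is 43.6% and 59.0% beside 51.9% and 52.8% of all genes tested. The other marks of active or open starts hardly moved at the same genes, with 23 and 24 for H3K27ac and 33 and 34 for ATAC.

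**Figure D4:**
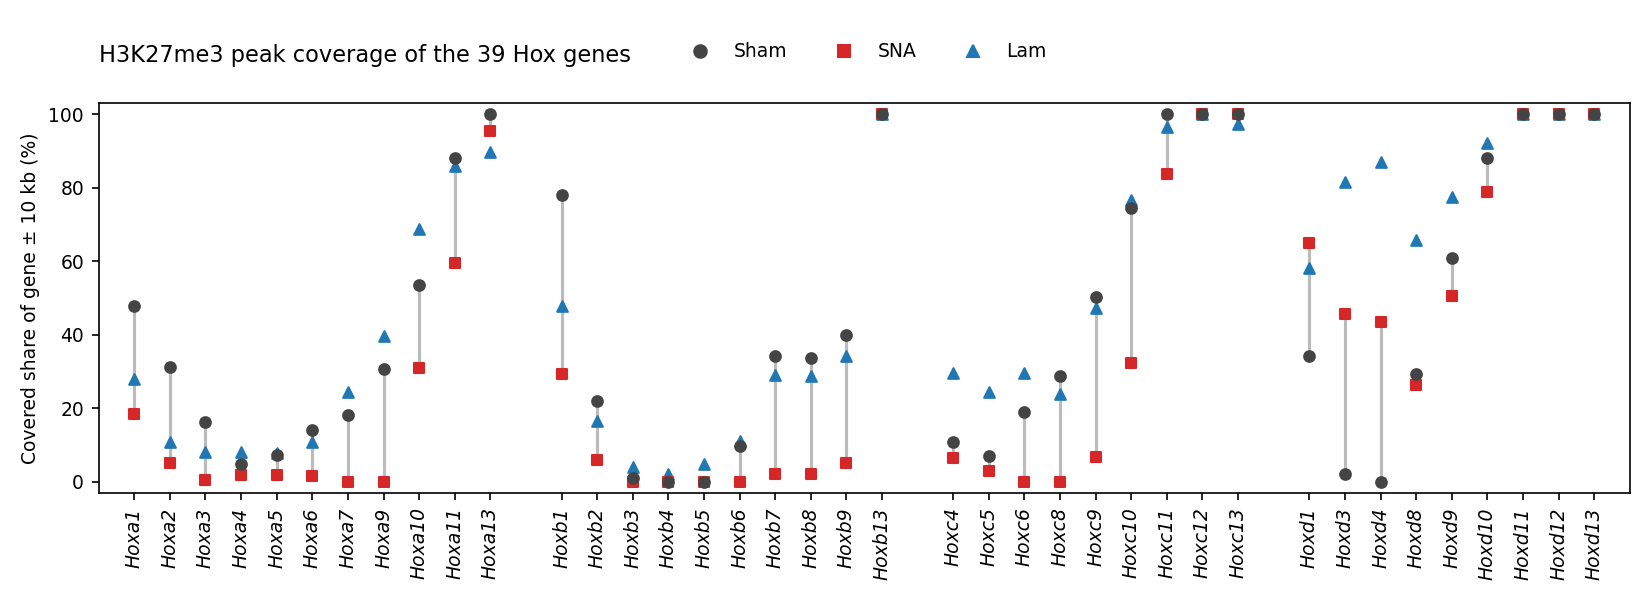
Covered share of the 39 Hox genes in the Sham, SNA and Lam lists, by cluster and paralogue number, with a grey line from Sham to SNA. SNA is below Sham through most of Hoxa, Hoxb and Hoxc up to about paralogue 10, both are near 100% at paralogue 13, and in Hoxd the Lam values are the highest for Hoxd3 and Hoxd4.

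Of 96 developmental transcription factors outside the Hox clusters, 5 lost coverage (5.21%) and 7 gained it (7.29%), beside 9.06% and 3.87% of all genes. Called or not, 67 of the 96 were lower after SNA and 25 higher, beside 10381 lower and 6958 higher of all 18862 genes. In Lam against Sham 48 of the 96 were lower and 37 higher. The median change of the list from Sham to SNA was -5.15 points, beside -0.57 over all genes. At least 50% of the gene and its flanks was covered for 80 of them in Sham and 80 in SNA, of which 74 were the same genes, with 6 in Sham only and 6 in SNA only. Pax6, which specifies eye and brain regions, was at 77.6% and 74.5%, and Olig2, of motor neurons and oligodendrocytes, at 100% and 96.3%. Among the losses, Tbx2, which acts in limb and heart, went from 32.9% to 0%, Meis1, a cofactor of Hox proteins, from 19.0% to 6.82%, and Sox3, on the X chromosome, from 39.2% to 2.47%. One of the 5, Sox3, was also lost against Lam.

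Genes of satellite glia and Schwann cells had 6 losses and no gain among 26 tested, 23.1% against 9.06%. Foxd3, which keeps the neural crest progenitor state, was covered at 65.1% after Sham, 63.3% after Lam, 17.0% after SNA and 12.9% after DCA. Sox2, a factor of progenitors and immature Schwann cells, was at 70.2%, 44.3%, 21.6% and 14.8%. Sox10, which defines the glial lineage, was at 13.6%, 10.7%, 0% and 0%. Pou3f1, given above, is the 4th member, and Gfap and Cadm4 had smaller losses, of which Cadm4 was the 1 not lost against Lam. The median change of the list was -3.09 points. The starts of 18 of the 28 genes listed had an H3K9ac peak in Sham and 22 in SNA, an H3K27ac peak in 20 and 26, and an ATAC peak in 21 and 23. For H3K27ac that is 71.4% and 92.9%, beside 41.8% and 53.0% of all genes tested.

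Sensory neuron genes had 4 losses and 2 gains among 45 tested, 8.89% and 4.44%, close to the shares of all genes. Prdm12, which specifies pain-sensing neurons, fell from 79.9% in Sham to 35.7% in SNA, and Nefm, a neurofilament subunit, from 50.8% to 15.4%. Mrgprd, a receptor of non-peptidergic pain fibres, fell from 17.2% to 0%, and the potassium channel gene Kcnc4 from 46.8% to 19.1%. Mrgprd and Kcnc4 were also lost against Lam. The gains were Nefh, another neurofilament subunit, from 4.32% to 21.5%, and Oprd1, the delta opioid receptor, from 7.43% to 18.3%, and in Lam they stood at 33.3% and 31.6%. Nefh lies in the first megabases of chromosome 11 (from 3 to 6 Mb), which held 34.9% of the SNA peaks with a q of at most 0.05 and 4.77% of such Sham peaks.

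Genes known to be induced in axotomised neurons gave 6 losses and 3 gains among 53 tested, 11.3% and 5.66%, which is near the 9.06% and 3.87% of all genes. The genes are therefore given one by one as a description. All 6 losses held against Lam. Ecel1, an endopeptidase gene induced by nerve injury, was covered at 64.6% after Sham, 63.3% after Lam and 28.2% after SNA. Tubb3, of neuronal tubulin, went from 26.7% and 35.1% to 0%, and Tubb2b from 18.6% and 13.5% to 0%. The cytokine gene Lif fell from 12.2% to 0.177%, with 13.3% in Lam. Lif lies in the same first megabases of chromosome 11 as Nefh, and the highest −log10 q of a peak within 10 kb of Lif was 6.78 in Sham, 3.60 in SNA and 21.2 in Lam. The TWEAK receptor gene Tnfrsf12a fell from 33.1% to 14.3%, and Ngfr, the low-affinity neurotrophin receptor, from 26.4% to 9.14% with 55.6% in Lam. Of the gains, Anxa1 rose from 0.443% to 11% and Reg3b from 6.00% to 22.0%, with no covered base in Lam. The gain of Adcyap1, the gene of the neuropeptide PACAP, from 2.84% to 35.0%, did not hold against Lam, where it was at 41.8%.

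Of the 6 injury genes that were looked up whatever their values, none was called in either direction. Atf3, the transcription factor most used as a marker of axotomised neurons, was covered at 10.7% after Sham, 18.8% after SNA, 13.6% after Lam and 9.01% after DCA. Jun was at 4.34% after Sham and had no covered base after SNA, and its Lam share was 2.51%. Sox11, which drives axon growth programmes, was broadly covered in Sham at 75.4% and in SNA at 61.8%, with 34.8% in Lam. The neuropeptide gene Gal was at 39% and 26.4%, the cornifin gene Sprr1a at 10.6% and 5.19%, and Gap43, of the growth cone, at 0.928% and 7.15%. For Sox11 the 2 lists without axotomy lay further apart than Sham and SNA.

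Polycomb genes themselves had 4 losses and no gain among 26 tested, 15.4% beside 9.06% of all genes, and 2 of the 4 held against Lam. Pcgf1 fell from 79.8% in Sham to 33.9% in SNA with 76.5% in Lam, and Cbx8 from 51.4% to 19.0% with 47.8% in Lam. These genes encode subunits of repressive complex 1. Cbx2, of the same complex, fell from 37.6% to 12.5%, but it stood at 10.1% in Lam, so Sham was the high list there. Cbx2 and Cbx8 are neighbours on chromosome 11. The genes of the writer complex were almost free of the mark: Ezh2 was at 1.33% and 0%, Eed at 1.23% and 0%, and Suz12 at 0% and 6.27%.

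Signalling genes of the Wnt and BMP pathways, which pattern embryonic tissues and are regular Polycomb targets, had 11 losses and 2 gains among 50 tested, 22.0% and 4.0% beside 9.06% and 3.87% of all genes, so the share of gains was at the background. The ligands Wnt1, Wnt6, Wnt7b, Wnt10a, Wnt10b and Wnt11 all lost coverage, Wnt1 from 86.4% to 37.1% and Wnt11 from 40.6% to 4.65%. Wnt1 and Wnt10b are neighbours on chromosome 15, and Wnt6 and Wnt10a on chromosome 1, so these pairs share peaks. The ligand Bmp4 fell from 54.4% to 22.2% with 63.1% in Lam. The secreted antagonists Nog, Chrd, Sfrp5 and Dkk1 were lost too, Nog from 32.1% to 6.04%. The gains were the Wnt antagonist Wif1, from 20.3% to 47.5%, and the ligand Gdf5, from 2.55% to 19.5%. Of the 11 losses, 7 held against Lam. Lam against Sham called 2 of the 50 lost and 3 gained.

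Macrophage genes had 5 losses and 1 gain among 29 tested, 17.2% and 3.45% beside 9.06% and 3.87% of all genes. The losses were Tnf, Irf8, Trem2, Cd14 and Csf1r, of which the first 3 held against Lam. Cd14, at 33.9% in Sham and 16.4% in SNA, stood at 1.08% in Lam and was a gain against it. Tnf, a cytokine gene, was at 45.0% after Sham, 47.7% after Lam and 11% after SNA, and Irf8, a transcription factor of the lineage, at 42.8%, 49.0% and 16.7%. The chemokine gene Ccl2 gained, from 3.58% in Sham and 2.93% in Lam to 21% in SNA. This call depended on the flanks, since over the gene body without them Ccl2 was lower in SNA, with a change of -41.7 points. Among the lists of other cells, endothelial and fibroblast genes had no call in 24 tested, with changes from -9.79 points at Tie1 to 4.34 at Postn.

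Lists that were taken as contrast were near or below the shares of all genes, 9.06% lost and 3.87% gained. Ribosomal protein genes had 2 losses (Rpl22 and Rpl38) and 1 gain (Rpsa) among 41 tested, 4.88% and 2.44%. Genes of epithelium, liver, pancreas and germ line had 4 losses (Krt17, Apoa1, Ins2 and Tnp1) and 1 gain (Krt72) among 40, 10% and 2.5%. Lam against Sham called 4 of these 40 lost and 7 gained, so the list also differed between the 2 lists without axotomy. Clustered protocadherins, which give neurons a surface identity, had 1 loss (Pcdhb1) among 33, 3.03%. Axon guidance and adhesion genes had 1 among 50, 2%, the guidance ligand Slit1, from 42.5% to 20.4%. Lam against Sham called 2 protocadherins lost and 2 gained, 2 ribosomal protein genes gained, and no axon guidance gene. The median change of the axon guidance list was 0.05 points.

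**Figure D5:**
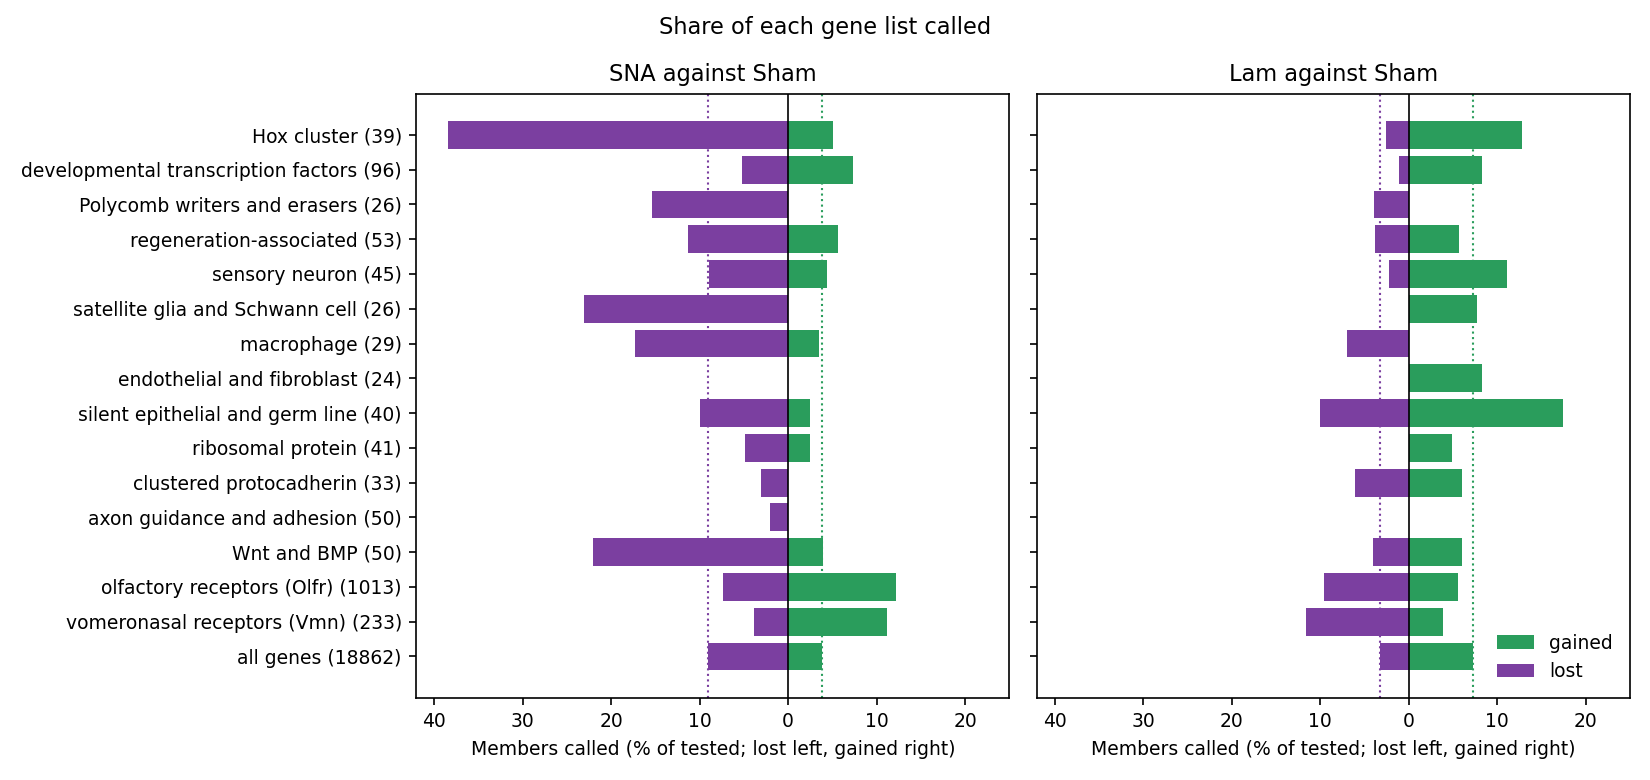
Percentage of the tested members of each gene list that gained (right of 0) or lost (left of 0) coverage, for SNA against Sham and for Lam against the same Sham list, with the number tested in brackets and the shares of all genes as dotted lines. For SNA the Hox list has the highest share of losses (38.5%) and olfactory receptors the highest share of gains (12.1%). The dotted lines are not matched for coverage in Sham.

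The largest gains after SNA were at transcription factor genes where Sham was the low list. Six6, which acts in eye and pituitary, was covered at 7.42% after Sham, 100% after SNA, 80.6% after Lam and 70.9% after DCA. Dlx2, of forebrain interneurons, was at 0%, 80.7%, 87.6% and 22.9%, and its neighbour Dlx1 at 6.05%, 77.3%, 87.6% and 37.4%. Klf14 was at 12.5%, 82.9%, 67.6% and 55.5%, and Sox9, a factor of cartilage and glial progenitors, at 11.9%, 80.4%, 65.5% and 18%. The Sham list thus lacked domains that the other 3 lists held, in whole or in part. None of the 10 largest gains was called against Lam. The others were Foxf2, Mpzl2, Tal1, Gfy, Foxl1 and BC107364, among them Tal1, a factor of blood formation, at 4.54% in Sham, 66.0% in SNA and 84.6% in Lam. For Dlx2, Mpzl2 and Gfy no peak was listed in Sham, and whether peaks removed from that list lay there was not tested.

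The 218 genes gained against both Sham and Lam were of another kind. Ccl6, a chemokine of myeloid cells, was covered at 0% after Sham, 48.2% after SNA, 17.1% after Lam and 5.61% after DCA. Il31, an itch-inducing cytokine, was at 4.62%, 52.1%, 18.7% and 1.12%. Lmx1a, a factor of the roof plate and of dopamine neurons, was at 5.49%, 40.8%, 19.9% and 26.8%, which is 9.91 kb covered after Sham and 73.6 kb after SNA. Rag1, which starts antigen receptor rearrangement, was at 10.4%, 45.1%, 19.3% and 33.2%, and Gimap6, a lymphocyte GTPase, at 10.7%, 44.4%, 4.35% and 14.7%. SNA was the highest of the 4 lists in each of these 5 genes.

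Chemosensory receptors were common among these gains. Olfactory, vomeronasal and trace amine receptors made up 42.2% of the 218 genes, 20.5% of all 730 gained genes, 4.92% of the 1708 lost and 6.68% of all genes tested. Of 1013 olfactory receptor genes tested, 123 gained (12.1%) and 75 lost (7.40%). Of 233 vomeronasal receptor genes 26 gained (11.2%) and 9 lost (3.86%). Over all genes 3.87% gained and 9.06% lost. Lam against Sham had the opposite balance, with 57 olfactory receptor genes gained and 97 lost, and 9 vomeronasal receptor genes gained and 27 lost. These receptors sit in large arrays of near-identical genes, where the placing of short reads is uncertain and neighbours share peaks.

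At the level of domains, 533 windows of 100 kb lost coverage after SNA (2.23% of 23889) and 347 gained it (1.45%). Lam against Sham had 172 lost (0.72%) and 702 gained (2.94%), DCA against Lam 2890 lost (12.1%) and 10 gained (0.0419%), and SNA against Lam 975 lost (4.08%) and 193 gained (0.808%). Adjacent windows joined into 461 lost domains of up to 400 kb and 329 gained domains of up to 300 kb. Lost windows were gene-rich, with a mean of 2.53 protein-coding genes against 1.26 in all windows and 1.25 in gained ones. Of the lost windows 316 were also lost against Lam, and of the gained windows 44 were also gained.

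Ranked by the change in covered kb, the first lost domain, at -82.6 kb, was on chromosome 17 (chr17:27200001-27500000, mm10), with Grm4, a metabotropic glutamate receptor gene, and Lemd2. It was covered at 37.3% after Sham, 47.1% after Lam, 9.80% after SNA and 0.543% after DCA. The next, at -82.5 kb, was the longer domain of 400 kb on chromosome 7 (chr7:29000001-29400000), which held 15 genes including the ryanodine receptor gene Ryr1 and went from 26.6% to 6.00%. A domain with the growth factor genes Fgf3, Fgf4 and Fgf15 and the chloride channel gene Ano1 (chr7:144600001-144900000) went from 39.8% to 18.6%, with 45.6% in Lam. In these 3, every 100 kb window was lost against Lam too. The domain on chromosome 2 (chr2:31800001-32000000) with Lamc3, Fibcd1 and Abl1 went from 33.5% to 3.38%. Others of the first 10 held Sox13 and Kiss1, Casz1, Igsf21, Adgrb1, and Espn with Hes2 and Hes3.

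Of the first 10 gained domains by the same ranking, 2 had a window that held against Lam. The first (chr1:167600001-167900000) spanned Lmx1a and the retinoid receptor gene Rxrg, and was covered at 5.99% after Sham, 32.6% after SNA, 21.1% after Lam and 20.2% after DCA. The other (chr4:121500001-121700000) held 2 predicted genes and went from 16.3% to 35.6%, with 19.7% in Lam. The rest included the windows of Hoxd3 and Hoxd4, of Dlx1 and Dlx2 and of Six6, where Sham was low, a window with the T-cell gene Cd3e and Mpzl2 (chr9:45000001-45100000) at 16.4% in Sham and 65.7% in SNA, the window of Lnx1, and 3 domains with no protein-coding gene.

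Other marks at the called genes, which the rule did not use, separated gained from lost genes in both lists alike. An ATAC peak lay within 1 kb of the start of 44.7% of gained genes after Sham and 45.6% after SNA, of 75.7% and 78.8% of lost genes, and of 72.8% and 75% of all genes tested. An H3K9ac peak lay at 19.3% and 20.0% of gained genes, 40.0% and 40.1% of lost genes and 51.9% and 52.8% of all. For H3K27ac the shares were higher after SNA than after Sham in every class. They went from 15.6% to 19.6% for gained, from 33.1% to 39.5% for lost and from 41.8% to 53.0% for all genes. Lam, without axotomy, was above Sham too, at 18.9%, 42.1% and 53.2% in the same order, so Sham was lower than both. An H3K27ac peak present after SNA and not after Sham was found at 11.8% of lost genes, 6.03% of gained genes and 14.6% of genes with no call. For ATAC and H3K9ac, lost genes were instead above uncalled genes, while lost genes were above gained genes for every mark. An ATAC peak after SNA alone was found at 7.73% of lost, 7.40% of gained and 5.50% of uncalled genes, and an H3K9ac peak at 5.91%, 2.74% and 5.16%. Peaks present after Sham alone were also more frequent at lost than at uncalled genes, at 4.63% against 3.36% for ATAC, 5.80% against 4.18% for H3K9ac and 5.44% against 2.53% for H3K27ac. Of the 70 lost genes that are named here or belong to a gene list, 7 had an H3K27ac peak in SNA and not in Sham. These were Sox2, Wnt10b, Sfrp5, Tnfrsf12a, Ngfr, Gfap and Cadm4, and all but Ngfr and Gfap had the peak in Lam as well. Rpl38 had one in Sham and not in SNA. Of the same 70, 3 had an H3K9ac peak in SNA only and 4 in Sham only, and for ATAC the numbers were 8 and 2.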

How the data were processed

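The H3K27me3 samples were sequenced with 50-base single-end reads, and each condition had 2 immunoprecipitates and 2 inputs. The authors deposited 1 broad peak list per condition, made from pooled replicates per the labels' protocols, with coordinates on mm10 per the submitters' processing notes. The aligner, the peak caller and its settings are not given in the sources used here. Each deposited line gives an integer score, which was not used, a linear fold ratio over the authors' background, and −log10 p and −log10 q values. These are the authors' own values per peak and were used only to describe or filter peaks within a list. Read depth is not in the lists.

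Peaks of each list were merged, and covered bases were counted per protein-coding gene with 10 kb flanks and per 100 kb window, with Python 3.11.15, numpy 2.4.6 and pandas 2.3.3. Genes came from the RefSeq table of GRCm38.p6, whose primary chromosomes are those of mm10. Of 21883 protein-coding genes, 17491 (79.9%) matched a RefSeq promoter. Promoter comparisons were made over those promoters, and none was made over gene classes, where fewer than 80% of lost genes had one. Peaks of the other marks were sought within 1 kb of the promoter, or of either gene end where no promoter was matched. The counting was tested on simulated intervals. A call needed a difference of at least 2 times and 10 points. Genes were named when among the 10 largest changes in each direction, the 5 largest also called against Lam, called members of the 13 gene lists, the largest change each way in lists with no call, or the 6 injury genes. Of genes with overlapping windows only the most changed was named among the largest, and predicted genes and chemosensory receptors were counted only. Genes cited besides these illustrate a list and were chosen after their values were seen. A few genes are not reported here. Drgx and Pcdhgb8 were not found in the gene table. The members and lists were chosen with earlier results of these data known. Alternatives were other thresholds, flanks, window sizes, peak filters, gap closing, scaling and Lam as the control. Matplotlib 3.10.9 drew the figures.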

Additional observations from a re-analysis of the deposited data

Results flagged for a closer look

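Among the 109 named genes, 31 gained H3K27me3 coverage after sciatic axotomy against Sham. Of these, 18 lost it after dorsal column axotomy against Lam, so the 2 comparisons, each with its own control list, had opposite signs there. Of all 730 gained genes, 235 (32.2%) did so. The difference between the 2 comparisons was not tested, since each condition has 1 list. The change from Lam to DCA, in points of covered share, was Gfy (-91.5), Foxl1 (-82.9), Hoxd4 (-78.7), Hoxd3 (-70.8), Foxc2 (-65.3), Dlx2 (-64.8), Tal1 (-57), Krt72 (-54.8), Dlx1 (-50.2), Sox9 (-47.6), Foxf2 (-42.3), T (-39.5), Nefh (-33.3), Oprd1 (-30.5), Pax8 (-28.9), Gdf5 (-26.9), Il31 (-17.6), Ccl6 (-11.5). Loss was the common direction for DCA, at 22.3% of all genes. At 16 of the 18 genes SNA was not called higher than Lam, and Sham was below both of them, while Ccl6 and Il31 were higher in SNA than in both.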

How the results depend on the processing

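The direction of the main result, more genes and windows lost than gained after SNA, held under all alternatives except 1, and the counts depended on the rule. Against 730 genes gained and 1708 lost, a rule of 1.5 times and 5 points gave 1943 and 3747, peaks with −log10 p of at least 2 gave 25 and 136, peaks with q of at most 0.05 gave 3 and 31, and 50 kb flanks gave 196 and 919. The strictest fold (3 times), scaling to equal covered length, the strongest peaks, closed gaps, no flanks and Lam in place of Sham left the gene counts within 1.5 times. Against 347 windows gained and 533 lost, the rule of 1.5 times gave 1872 and 2185, 3 times gave 159 and 286, −log10 p of at least 2 gave 11 and 94, q of at most 0.05 gave 0 and 20, Lam in place of Sham gave 193 and 975, 50 kb windows gave 1623 and 1954, and 200 kb windows gave 46 and 148. With the strongest peaks up to equal length, windows gained (557) passed windows lost (536). The log2 ratio of covered length, -0.04 for SNA over Sham, was -1.35 for peaks with −log10 p of at least 2, -3.19 with q of at most 0.05, and -0.17 against Lam. The opposite direction of Lam against Sham turned under both peak filters. With −log10 p of at least 2, Lam against Sham had 77 genes gained and 134 lost, and 46 and 90 windows. With q of at most 0.05 it had 14 and 27 genes, and 1 and 18 windows. The cause of these shifts was not tested.

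Called genes whose change in covered share (points) turned sign were, with the strongest peaks, Dio3 (18.4), Wnt1 (35.3), Hoxb1 (5.57), Sox2 (4.46), Pcgf1 (21.5), Hoxc10 (17.5), Ecel1 (1.47), Nefm (9.74), Hoxb9 (4.02), Wnt10b (7.35), Kcnc4 (4.47), Wnt6 (0.139), Wnt10a (3.44), Ins2 (2.71), Dkk1 (4.34), Gdf5 (-0.653), Rag1 (-2.35), Foxf2 (-3.79). Against Lam they were Cbx2 (2.34), Cd14 (15.3), Oprd1 (-13.3), Gdf5 (-12.4), Nefh (-11.8), Pax8 (-8.85), Krt72 (-25.2), Adcyap1 (-6.83), Hoxd3 (-36), Hoxd4 (-43.5), T (-0.242), BC107364 (-4.83), Foxc2 (-12.2), Foxl1 (-3.05), Gfy (-30.3), Tal1 (-18.6), Mpzl2 (-6.73), Foxf2 (-6.17), Dlx1 (-10.2), Dlx2 (-6.92). With −log10 p of at least 2 they were Prdm12 (1.04), Slit1 (0.0974); without flanks Wnt10a (9.1), Ins2 (53.4), Ngfr (2.48), Ccl2 (-41.7), Krt72 (-11.7); and with 50 kb flanks Ins2 (13.1), Pcdhb1 (0.42), Rpsa (-4.93), Ccl2 (-3.79), Foxc2 (-11.9), Foxl1 (-11.1). No called gene turned under the other rules of size, scaling, closed gaps or q of at most 0.05, but at that q 98 of the 101 called genes lost their call.

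No paired analysis was possible because each deposited list pools the replicates of its condition, and leaving out a replicate was not possible for the same reason. Read depth is not in the lists, so no counting interval is given. What limits the comparison is 1 list per condition, faint peaks (median 1.11-fold after Sham), and ranked peaks that are absent from the lists.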

Other observations

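Losses after SNA were unevenly spread over chromosomes. The share of tested genes lost was 14.1% on chromosome 17, 13.8% on chromosome 7 and 13.1% on chromosome 15, and 3.75% on chromosome 16 and 4.33% on chromosome 3. Gains ranged from 2.34% on chromosome 15 to 5.80% on chromosome 7, among the autosomes. On the X chromosome 152 genes were tested, with 3 lost and 4 gained.

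SNA peaks with q of at most 0.05 were few and lay in 0.414% of all genes tested, against 2.28% for such Sham peaks. None of the 218 lay at a Hox or listed developmental gene, and 2 of the 1613 such Sham peaks did. With such low shares over all genes, these counts do not show whether Polycomb targets were avoided. Lmx1a, a developmental factor outside that list, held an SNA peak with −log10 q of 1.75. Of the 218, 76 lay between 3 and 6 Mb of chromosome 11, beside 77 of 1613 in Sham, 97 of 916 in Lam and 1 of 43 in DCA. The peak with the highest −log10 q after SNA, 16.4 at 2.20-fold, was in Ankrd36 there (chr11:5673735-5674490). In that region the median fold of such SNA peaks was 1.27, and elsewhere 2.50. Between 4 and 5 Mb the SNA list of H3K27me3 had 41 peaks, fewer than its genome mean of 52.0 per Mb. The SNA lists of the other assays had more than their own means there, with 82 for H3K9ac against 27.4, 68 for H3K27ac against 27.8 and 138 for ATAC against 64.1.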
